A study of Mus musculus with 11 samples.

Results

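The TGF-β ligands, receptors and Smads were taken as every gene on the panel whose symbol begins with Tgfb, or with Smad followed by a digit. The rule found 5 of 754 genes. These were Tgfb1, the TGF-β1 ligand, Tgfbr3, the co-receptor betaglycan, the receptor-activated Smads Smad1 and Smad2, and the inhibitory Smad7. All 5 were among the 696 genes tested, and the other ligands, the signaling receptors and the other Smads were not analysed here.

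Skin from the nape of the neck was collected 7 weeks after bone marrow transplant from 11 female mice, which were 8 to 10 weeks old when used. All 11 had received 850 cGy of radiation, then 5000000 bone marrow cells and 2000000 splenocytes. The 3 syngeneic mice and the 3 allo-WT mice were C57BL/6J recipients. The 5 allo-MCd mice were mast cell-deficient B6.Cg-KitW-sh/HNihrJaeBsmGlliJ recipients, which carry the W-sh allele of Kit in every recipient cell type and not only in mast cells. The allogeneic groups received LP/J cells. For the syngeneic group the labels also give LP/J donors, whereas the methods give C57BL/6J donors, and the group is called syngeneic here as both call it. Mast cell-deficient recipients of syngeneic cells were not analysed here. From each mouse, 100 ng of skin RNA was run on NanoString's Myeloid Innate Immunity panel, in which barcoded probes count single RNA molecules.

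TGF-β1 is secreted in a latent form that integrins and proteases release at the cell surface or in the matrix. The free ligand, presented in part by betaglycan, binds paired receptor kinases that phosphorylate Smad2 and Smad3, while the related bone morphogenetic proteins act through Smad1 and its close relatives. The activated Smads join Smad4 and enter the nucleus, and one of the genes they induce is Smad7, whose product blocks the receptors. In skin the pathway is known for driving collagen production by fibroblasts and for restraining keratinocyte growth.

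The bases before the transcription start are shown for Tgfb1 and Smad1, the ligand and a Smad whose transcripts differed in opposite directions between the allogeneic groups. The sequences are from RefSeq on GRCm38.p6, read 5′ to 3′ on the strand of the gene, and each holds the 250 bases directly upstream. Capitals mark the GC box GGGCGG, searched on both strands, so that its reverse complement CCGCCC is also in capitals.
Tgfb1, chr7:25686752-25687001, plus strand: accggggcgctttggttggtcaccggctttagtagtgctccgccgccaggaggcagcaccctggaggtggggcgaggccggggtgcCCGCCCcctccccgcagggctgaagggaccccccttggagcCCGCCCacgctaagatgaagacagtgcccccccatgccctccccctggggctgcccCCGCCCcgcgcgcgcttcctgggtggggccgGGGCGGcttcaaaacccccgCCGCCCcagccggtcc
Smad1, chr8:79399429-79399678, minus strand: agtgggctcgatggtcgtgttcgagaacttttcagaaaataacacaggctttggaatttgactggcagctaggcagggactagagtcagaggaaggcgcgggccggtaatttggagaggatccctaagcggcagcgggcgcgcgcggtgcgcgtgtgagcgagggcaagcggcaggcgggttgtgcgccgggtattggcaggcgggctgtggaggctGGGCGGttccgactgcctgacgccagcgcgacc
The Tgfb1 stretch held 5 GC boxes and was 75.2% G or C. The Smad1 stretch held 1 and was 63.6% G or C, against a median of 52.4% over 32851 promoters. At least 1 GC box was present in 32.7% of these promoters and at least 5 in 1.93%. Neither stretch held the letters CAGAC (a Smad element, in 42.2% of promoters), TGANTCA (the AP-1 element, in 6.7%) or TATAAA (in 12.4%), each searched on both strands.

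The deposited values were counts scaled by 1 factor per mouse, called normalized counts below. The geometric mean of 20 housekeeping genes was equal in 10 of the 11 mice and slightly lower in allo-MCd mouse 5. The totals recovered from these factors ran from 831632 to 1460260 counts. Mouse 1 of the allo-WT group stood apart, with the lowest total, the largest factor (2.54) and 3975 counts of the strongest positive control, against 17615 to 33547 in the other 10 mice. The members were well measured in every mouse, at 153 to 2369 recovered counts and 10.3 to 149 times the background, set at 2 SD above the mean of the negative control probes. Across the allo-MCd mice, Kit was above background in 0 of 5 and the mast cell protease Cpa3 averaged 157 ± 121 (SD, n = 5), against 3944 ± 2842 (SD, n = 3) in allo-WT skin. Of the keratinocyte markers only Cdh1 was measured, and it was above background in every mouse.

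Between the allogeneic groups the ligand and the Smads differed in opposite directions. Tgfb1 was lower in the skin of allo-MCd than of allo-WT mice, and Smad1, Smad2 and Smad7 were higher, while Tgfbr3 did not pass the test. With 3 of the 5 members higher and 1 lower, these counts stood beside 10.9% of the 696 tested genes called higher and 50% called lower. The test was limma on log2(normalized count + 1) in a single fit of the 3 groups, and genes were called at a Benjamini-Hochberg adjusted p of at most 0.05 over the tested genes. Between allo-WT and syngeneic skin 0 members were called higher and 0 lower, where 28.3% of genes were called higher and 14.9% lower. In that comparison 2 of the 5 members, Tgfb1 and Smad1, had an unadjusted limma p under 0.05. The genes called there, 28.3% and 14.9% of all, also pass this looser cut, so the 2 members do not stand out. The other analyses called 0 to 3 members. Between allo-MCd and syngeneic skin, 1 member was higher (Smad7, with a background of 4.6%) and 2 were lower (Tgfb1 and Tgfbr3, with a background of 36.9%).

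These calls depend on the scale. Over the 696 genes, the median log2 difference between allo-MCd and allo-WT skin was -0.72. It was 0.21 for the allo-WT minus syngeneic comparison, and -0.59 for the comparison of allo-MCd with syngeneic mice. When every mouse was further brought to 1 common median gene value, called median scaling here, these medians became 0.12, -0.04 and -0.01. Under median scaling, Smad1, Smad2 and Smad7 were higher in the skin of allo-MCd than of allo-WT mice and 0 members were lower, beside 35.6% and 30.3% of all genes. Between allo-WT and syngeneic skin 0 members were then higher and 2, Smad1 and Tgfbr3, were lower, beside 24.3% and 27.3%. Between allo-MCd and syngeneic skin the same Smads, 3 in number, were higher and 0 members lower, beside 13.9% and 13.5%. The higher values of Smad1, Smad2 and Smad7 in allo-MCd skin relative to allo-WT skin were therefore called on both scales, apart from Smad2 on the deposited scale without allo-WT mouse 1, and the lower value of Tgfb1 on the deposited scale but not under median scaling.

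**Figure D1:**
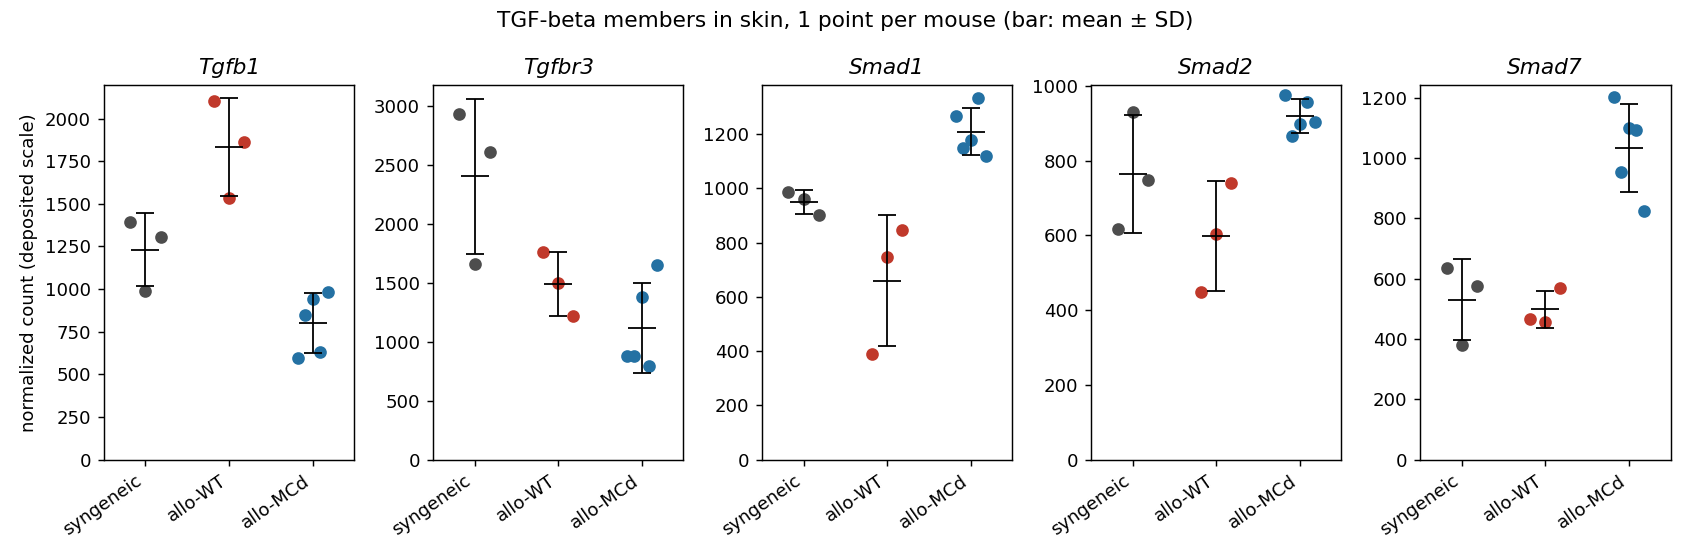
Normalized counts of the 5 members on the deposited scale, with 1 point per mouse and the mean ± SD of each group (n = 3 for syngeneic and for allo-WT mice, n = 5 for allo-MCd mice). For Tgfb1 the 3 allo-WT mice lie between 1533 and 2104 and above all others, whereas for Smad1 and Smad7 the 5 allo-MCd mice lie above all others.

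Tgfb1 encodes the ligand. Its normalized counts were 1396, 988 and 1303 in the syngeneic mice, 2104, 1533 and 1865 in the allo-WT mice and 598, 847, 941, 630.1 and 982 in the allo-MCd mice. The highest allo-MCd mouse lay just below the lowest syngeneic mouse, and the 3 groups did not overlap, though these last groups did under median scaling. The means were 1229 ± 214 (SD, n = 3), 1834 ± 287 (SD, n = 3) and 800 ± 177 (SD, n = 5). Tgfb1 was 2.32-fold lower in the skin of allo-MCd than of allo-WT mice, a log2 difference of -1.21 (SE 0.22, adjusted p = 0.000446, two-sided exact permutation p = 0.0179). This exact p is the smallest that 3 mice against 5 can give. The Tgfb1 difference lay at -0.50 from the median of all genes on the log2 scale, and 36.4% of the tested genes had a lower difference. Under median scaling the difference was -0.37 (95% interval -0.71 to -0.03, adjusted p = 0.0546), which did not pass.

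Tgfb1 was 1.5-fold higher in the skin of allo-WT than of syngeneic mice by the means of log2 values, a log2 difference of 0.58 that did not pass (SE 0.24, adjusted p = 0.0685). The exact permutation p was 0.10, the smallest that 3 mice against 3 can give. Under median scaling the difference was 0.33 (adjusted p = 0.133). In allo-MCd skin Tgfb1 fell below the syngeneic level by 0.63 on the log2 scale (SE 0.22, adjusted p = 0.0346), close to the median of all genes in that comparison. The call was lost without syngeneic mouse 1 (-0.53, adjusted p = 0.129) or 3 (-0.58, 0.113) and without allo-MCd mouse 1 (-0.54, 0.0776), 2 (-0.66, 0.0529) or 4 (-0.56, 0.0786). Under median scaling it was -0.04 (95% interval -0.39 to 0.30).

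In whole skin, fewer cells of a type and less RNA per cell cannot be told apart. The genes known to mark macrophages and monocytes were set beside Tgfb1. Of 12 listed, 11 were measured and 10 tested, and all 10 were lower in the skin of allo-MCd than of allo-WT mice, 9 of them also under median scaling, where 50% and 30.3% of all genes were lower. Their summed normalized count ranged from 17907 to 20566 in syngeneic, 29491 to 49518 in allo-WT and 5200 to 9983 in allo-MCd mice, without overlap. In allo-WT relative to syngeneic skin 5 of the 10 markers tested were higher on each scale, beside 28.3% and 24.3% of all genes. In allo-MCd relative to syngeneic skin 9 were lower, or 6 under median scaling, beside 36.9% and 13.5%. Under median scaling Tgfb1 was not called in any comparison. The defining marker Adgre1, which encodes F4/80, averaged 2357 ± 753 (SD, n = 3), 4836 ± 1512 (SD, n = 3) and 964 ± 196 (SD, n = 5), and the means of Csf1r, the receptor for macrophage colony-stimulating factor, lay in the same order (3224, 4629 and 1107). The 7 mast cell markers measured summed to 3851 to 9348 in syngeneic, 2397 to 14802 in allo-WT and 139 to 656 in allo-MCd mice. The 6 neutrophil markers summed to 496 to 727 in syngeneic, 3802 to 133083 in allo-WT and 532 to 1127 in allo-MCd mice, also without overlap for the allo-WT group. Of the T cell markers only Cd247 and of the regulatory T cell markers only Ctla4 was measured. The means of Cd247 for the syngeneic, allo-WT and allo-MCd mice were 150 ± 16.1 (SD, n = 3), 160.2 ± 19.3 (SD, n = 3) and 79.7 ± 27.2 (SD, n = 5), with a log2 difference between the allogeneic groups of -1.07 (adjusted p = 0.0102), or -0.23 under median scaling (0.489). Ctla4 averaged 77.2 ± 17.8, 233.8 ± 55.2 and 39.7 ± 20.4 (SD) in the same groups. It was lower in the skin of allo-MCd than of allo-WT mice on both scales (-2.72, adjusted p = 0.000437, and -1.89, 0.00621). In the skin of allo-WT relative to syngeneic mice it was higher on the deposited scale (1.58, adjusted p = 0.0323) and not called under median scaling (1.33, 0.0669). The part of these cells in the Tgfb1 difference was not tested.

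Tgfbr3 encodes betaglycan, a membrane proteoglycan that presents the ligand to the signaling receptors. Its normalized counts were 2936, 1664 and 2612 in the syngeneic mice, 1764, 1498 and 1220.0 in the allo-WT mice and 882, 877, 1381, 794 and 1655 in the allo-MCd mice. Mice 3 and 5 of the allo-MCd group lay within the allo-WT range and the other 3 below it, and the highest allo-WT mouse lay above the lowest syngeneic mouse. The means were 2404 ± 661 (SD, n = 3), 1494 ± 272 (SD, n = 3) and 1118 ± 380 (SD, n = 5). Tgfbr3 was 2.18-fold lower in the skin of allo-MCd than of syngeneic mice (log2 difference -1.13, SE 0.28, adjusted p = 0.00787, exact permutation p = 0.0357). Under median scaling this difference was -0.53 (adjusted p = 0.0811) and the groups overlapped.

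Tgfbr3 did not pass in the other comparisons on the deposited scale. Between allo-WT and syngeneic skin the difference was -0.66 (SE 0.31, adjusted p = 0.10). Under median scaling it was -0.91 (95% interval -1.44 to -0.39, adjusted p = 0.00873), 1.88-fold lower in allo-WT skin, and it stayed called with any 1 mouse left out. On the deposited scale it was also called without syngeneic mouse 2, the lowest of its group (-0.91, adjusted p = 0.047). Between the allogeneic groups the difference was -0.46 (95% interval -1.07 to 0.14), and it turned to 0.38 (95% interval -0.09 to 0.85) under median scaling. The direction between allo-MCd and allo-WT skin was thus not settled for Tgfbr3. The 3 endothelial markers measured, Cdh5, Flt1 and Tek, summed to 1112 to 1727 in syngeneic, 522 to 613 in allo-WT and 455 to 1110 in allo-MCd mice. Under median scaling this sum was 1025 to 1500, 351 to 486 and 634 to 1344 in the same order, so that the syngeneic and allo-MCd mice overlapped. Their part in the Tgfbr3 differences was not tested.

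Smad1 encodes the receptor-activated Smad of the bone morphogenetic protein branch, which TGF-β1 can also engage in some cells. Its normalized counts were 986, 961 and 902 in the syngeneic mice, 388, 748 and 844 in the allo-WT mice and 1265, 1149, 1179, 1334 and 1120.0 in the allo-MCd mice. The lowest value was that of allo-WT mouse 1, and the 3 groups did not overlap. The means were 950 ± 43.2 (SD, n = 3), 660 ± 241 (SD, n = 3) and 1209 ± 88.3 (SD, n = 5). Smad1 was 1.93-fold higher in the skin of allo-MCd than of allo-WT mice (log2 difference 0.95, SE 0.23, adjusted p = 0.00326, exact permutation p = 0.0179). Without allo-WT mouse 1 the difference was smaller and was still called (0.60, the lowest of the values with 1 mouse left out, whose highest adjusted p was 0.00929). Under median scaling it was 1.79 (adjusted p = 0.000187).

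Against syngeneic skin the Smad1 calls turned on the scale. The allo-WT minus syngeneic difference was -0.60 (SE 0.25, adjusted p = 0.0706), and it was called in 1 of the 11 fits with 1 mouse left out. Without allo-WT mouse 3, the highest of its group, it was -0.82 and called (adjusted p = 0.02), and without allo-WT mouse 1, the lowest, it was -0.26 (adjusted p = 0.269). Under median scaling it was -0.85 and called (adjusted p = 0.0369). That call was lost without any 1 of the 3 syngeneic mice or without allo-WT mouse 1, with values of -1.07 to -0.45 and adjusted p up to 0.134 over the mice left out. The allo-MCd minus syngeneic difference was 0.35 (95% interval -0.15 to 0.84, adjusted p = 0.225). The 5 allo-MCd mice lay above the 3 syngeneic mice all the same (exact permutation p = 0.0179), and under median scaling the difference was 0.94 (adjusted p = 0.0272). This call, the one made among 14 other analyses, was lost without any 1 of the 3 syngeneic mice or without allo-MCd mouse 1 or 4 (adjusted p up to 0.0981).

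Smad2 encodes a receptor-activated Smad of the TGF-β branch. Its normalized counts were 616, 930.4 and 748 in the syngeneic mice, 449, 604 and 741 in the allo-WT mice and 976, 867, 897, 956 and 902 in the allo-MCd mice. The allo-MCd mice lay within a narrow range above all allo-WT mice, and the syngeneic mice overlapped both. The means were 765 ± 158 (SD, n = 3), 598 ± 146 (SD, n = 3) and 920 ± 45.0 (SD, n = 5). Smad2 was 1.57-fold higher in the skin of allo-MCd than of allo-WT mice (log2 difference 0.65, SE 0.20, adjusted p = 0.0125, exact permutation p = 0.0179). Without allo-WT mouse 1 it was 0.46 and no longer called (adjusted p = 0.0714). Under median scaling it was 1.49 (adjusted p = 0.000214).

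Neither comparison of Smad2 with syngeneic skin passed on the deposited scale. The differences were -0.36 (95% interval -0.84 to 0.11) for allo-WT and 0.28 (95% interval -0.14 to 0.71) for allo-MCd skin. With 1 mouse left out they lay between -0.53 and -0.17, the latter without allo-WT mouse 1, and between 0.14 (without syngeneic mouse 1) and 0.44 (without syngeneic mouse 2). Under median scaling they were -0.62 (adjusted p = 0.0687) and 0.88 (adjusted p = 0.0189), and only the second was called. It was no longer called without syngeneic mouse 1 (0.73) or 3, at adjusted p up to 0.0965.

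Smad7 encodes the inhibitory Smad, a feedback product of the pathway. Its normalized counts were 636, 379 and 574 in the syngeneic mice, 466, 457 and 569.8 in the allo-WT mice and 1201, 952, 1098, 1092 and 825 in the allo-MCd mice. The lowest allo-MCd mouse lay above the highest of the other 6, which overlapped. The means were 530 ± 134 (SD, n = 3), 498 ± 62.4 (SD, n = 3) and 1034 ± 146 (SD, n = 5). Smad7 was 2.07-fold higher in the skin of allo-MCd than of allo-WT mice (log2 difference 1.05, SE 0.21, adjusted p = 0.000902) and 1.98-fold higher than in syngeneic skin (log2 difference 0.99, SE 0.21, adjusted p = 0.00344). The exact permutation p was 0.0179 in both comparisons, which share the allo-MCd mice. Under median scaling the differences were 1.89 and 1.58, and both stayed called on each scale with any 1 mouse left out. Between allo-WT and syngeneic skin the difference was -0.06 (95% interval -0.57 to 0.44, adjusted p = 0.84).

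The markers of other skin cells were set beside the Smads. On the deposited scale the 1 keratinocyte marker (Cdh1), the 3 endothelial and the 3 adipocyte markers measured were not called between the allogeneic groups. Of all genes 10.9% were higher and 50% lower there. Under median scaling Cdh1 was higher in the skin of allo-MCd than of allo-WT mice (0.80, adjusted p = 0.0167). So were 2 of the 3 endothelial and 2 of the 3 adipocyte markers, beside 35.6% of all genes, and 0 were lower, beside 30.3%. Normalized counts of Cdh1 ranged from 2216 to 4748 in syngeneic, 3955 to 6371 in allo-WT and 4652 to 5187 in allo-MCd mice. The adipocyte markers summed to 18099 to 36381, 14885 to 24465 and 14033 to 45269 in the same order. The allogeneic groups overlapped in both on the deposited scale and in neither under median scaling. The part of these cells in the Smad differences was not tested.

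**Figure D2:**
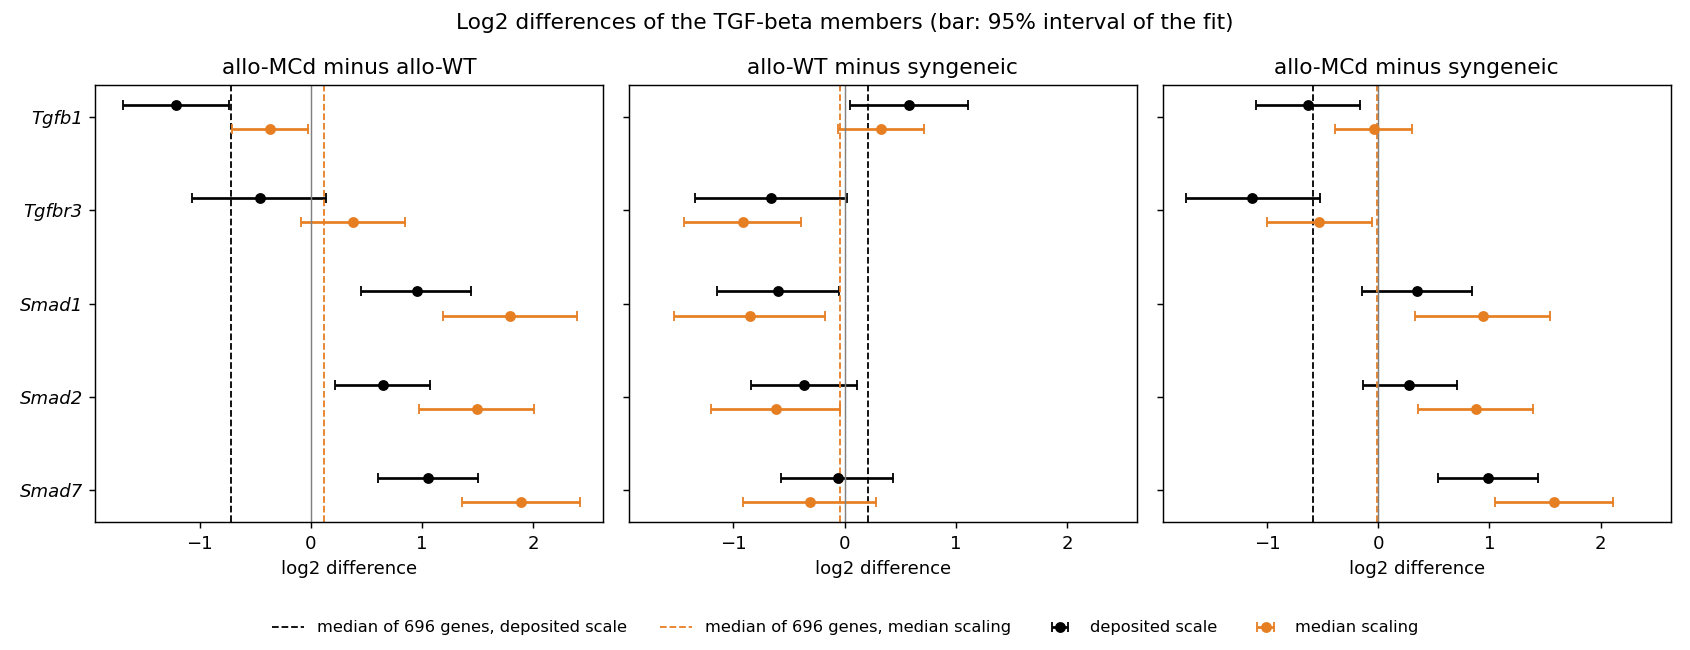
Log2 differences of the 5 members in the 3 comparisons, with the 95% interval of the limma fit, on the deposited scale (black) and under median scaling (orange). Dashed lines show the median over the 696 genes tested, which for allo-MCd minus allo-WT is -0.72 on the deposited scale and 0.12 under median scaling. The intervals of the Smads lie above 0 in that comparison on both scales, and that of Tgfb1 lies below 0.

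A ratio of 2 genes within a mouse does not depend on how that mouse was scaled. The ratio of each other member to Tgfb1 was compared between groups, and not between genes, whose probes may differ in efficiency. The Smad7 to Tgfb1 ratio was 0.456, 0.384 and 0.441 in the syngeneic mice, 0.222, 0.299 and 0.306 in the allo-WT mice and 2.01, 1.12, 1.17, 1.73 and 0.841 in the allo-MCd mice. The 3 groups did not overlap, with the allo-WT mice lowest. The mean log2 ratio was 2.26 higher in the skin of allo-MCd than of allo-WT mice and 1.62 higher than in syngeneic skin, each with a two-sided exact permutation p of 0.0179.

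The other Smads showed the same order of groups. The Smad1 to Tgfb1 ratio lay between 0.692 and 0.973 in syngeneic, 0.184 and 0.488 in allo-WT and 1.14 and 2.12 in allo-MCd mice, without overlap. It was 2.16 higher on the log2 scale in allo-MCd skin relative to allo-WT skin (exact permutation p = 0.0179). The Smad2 to Tgfb1 ratio lay between 0.442 and 0.942, 0.213 and 0.397, and 0.919 and 1.63 in the same groups. It was 1.86 higher in the skin of allo-MCd than of allo-WT mice (exact permutation p = 0.0179), and the allo-MCd and syngeneic ranges met. Against syngeneic skin the allo-MCd ratios were 0.98 higher for Smad1 (exact permutation p = 0.0179) and 0.92 higher for Smad2 (exact permutation p = 0.0357). With 1 mouse left out, these last 2 differences lay between 0.89 and 1.05 for Smad1 and between 0.67 and 0.99 for Smad2 where they no longer passed, which was without allo-MCd mouse 2 or 3, or syngeneic mouse 1 or 3, for both, and also without allo-MCd mouse 1 or 4 for Smad2.

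The Tgfbr3 to Tgfb1 ratio lay between 1.68 and 2.10 in syngeneic, 0.654 and 0.977 in allo-WT and 1.04 and 1.69 in allo-MCd mice. It was 0.75 higher on the log2 scale in allo-MCd skin relative to allo-WT skin (exact permutation p = 0.0179). Without allo-MCd mouse 1, 3, 4 or 5 this difference was 0.67 to 0.78 and its exact permutation p was 0.0571. Against syngeneic skin the allo-MCd ratio differed by -0.49 with overlapping groups (exact permutation p = 0.0714). In allo-WT skin all 4 ratios were below those of syngeneic skin without overlap, at log2 differences of -1.24 for Tgfbr3, -1.18 for Smad1, -0.94 for Smad2 and -0.64 for Smad7, and each exact permutation p was 0.10, the smallest possible there. Without allo-WT mouse 1, the lowest for Smad1, the Smad1 difference was -0.73. The 12 tests of ratios share Tgfb1 and their mice, and their p-values were not adjusted. In allo-WT relative to syngeneic skin Tgfb1 itself lay 0.37 above the median log2 difference of all genes. Ratios to Tgfb1 were not computed for the other tested genes, so no share of genes stands beside the ratios without overlap.

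**Figure D3:**
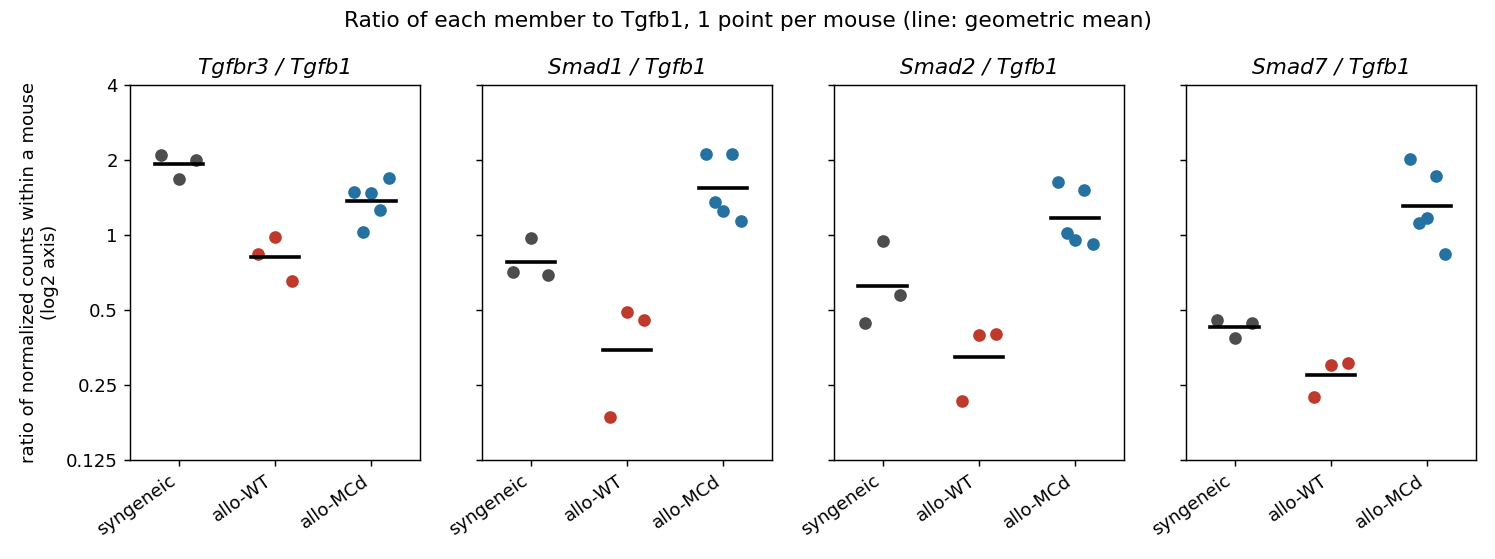
Ratio of the normalized count of each other member to that of Tgfb1 within a mouse, on a log2 axis, with 1 point per mouse and the geometric mean of each group. In all 4 panels the 3 allo-WT mice lie below all other mice, and in the 3 Smad panels the allo-MCd group has the highest mean.

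The members were also set against every tested gene by the root mean square difference between their mean-centred log2 profiles over the 11 mice, in which 0 is an identical pattern. This distance is a description with no test, and the profiles share the libraries. The profile closest to Smad1 among the tested genes was that of Smad2, at 0.221, followed by Egr2 at 0.232 and Apoe at 0.26, where the median tested gene was at 0.93. Smad2 was closest to Akap13 at 0.193, then Armc1 and Faf1, both at 0.196. Smad7 was closest to Jag1 at 0.284, a Notch ligand, then Hras at 0.294 and Prkci at 0.295. Tgfb1 was 0.996 from Smad1, 0.872 from Smad2 and 1.05 from Smad7. These distances were near those of the median tested gene from each Smad (0.93, 0.84 and 1.05), but above that of the median tested gene from Tgfb1 (0.66). Tgfb1 was closest to Ifnar2 and Stab1, both at 0.168, and to the integrin subunit Itgb1 at 0.169. Ifnar2 encodes an interferon receptor chain and Stab1 a scavenger receptor. Tgfbr3 was closest to Rhoj at 0.136 and Vegfc at 0.148, then Ifngr1 at 0.213.

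Genes of the processing and activation of latent TGF-β were represented by Furin, a convertase that cleaves the precursor, and by Itgb1, Mmp9, Mmp13 and Plau. Between allo-MCd and allo-WT skin 4 of the 5 were lower and 0 higher, where 50% and 10.9% of all genes were, with a median log2 difference of -1.32 against -0.72 over all genes. Mmp13, a collagenase, averaged 39.9 ± 19.6 (SD, n = 5) in allo-MCd and 1687 ± 1308 (SD, n = 3) in allo-WT skin (log2 difference -4.98, adjusted p = 4.29e-05). Its 39.6 ± 5.3 (SD, n = 3) in syngeneic skin made it the one list member called higher in the skin of allo-WT than of syngeneic mice (4.85, adjusted p = 0.000399). With 1 of the 5 higher and 0 lower, these counts stood beside 28.3% and 14.9% of all genes. Without allo-WT mouse 1 or 2 there were 2 list members called higher. In the syngeneic and allo-MCd mice Mmp13 was above but near the background, so the size of these differences is imprecise. Mmp9, a gelatinase, was lower in allo-MCd skin than in either other group, at log2 differences of -1.86 against allo-WT (adjusted p = 0.00166) and -1.38 against syngeneic skin (0.0168). Plau, the urokinase plasminogen activator, differed by -1.32 (0.000438) and -0.94 (0.00819) in the same comparisons. The latter calls were lost under median scaling, for Mmp9 (-0.80, adjusted p = 0.101) and for Plau (-0.34, adjusted p = 0.195). Itgb1 was lower against syngeneic skin (-0.55, adjusted p = 0.0392), and this difference turned to 0.04 under median scaling. The Itgb1 call was made in 5 of 11 fits that left out 1 mouse (adjusted p up to 0.141), and that of Mmp9 against syngeneic skin was lost without syngeneic mouse 1 (-1.18, adjusted p = 0.0816). Under median scaling 1 of the 5 was higher and 3 were lower in the skin of allo-MCd than of allo-WT mice, beside 35.6% and 30.3%, with a median of -0.47 against 0.12.

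Of the other superfamily members on the fixed list, Bmp6 and Bmp8a were measured. Bmp6, a ligand of the Smad1 branch, averaged 198 ± 30.2 (SD, n = 3) in the syngeneic group, 102 ± 64.4 (SD, n = 3) in the allo-WT group and 205 ± 26.9 (SD, n = 5) in the allo-MCd group. It was lower in the skin of allo-WT than of syngeneic mice (log2 difference -1.16, adjusted p = 0.0365) and higher in the skin of allo-MCd than of allo-WT mice (1.21, adjusted p = 0.0122), on both scales. On the deposited scale the second call was lost without allo-WT mouse 2 (0.68, adjusted p = 0.0569). The first was lost without any 1 of the 3 syngeneic mice or without allo-WT mouse 1 or 2, and was -0.63 without the last (adjusted p = 0.126). Bmp8a stood near background, at means of 33.4, 24.7 and 38.0, and was above background in 8 of the 11 mice. Between allo-MCd and allo-WT skin it was not called on the deposited scale (0.60, adjusted p = 0.135) except without allo-MCd mouse 5 (0.79, adjusted p = 0.031), and it was called under median scaling (1.41, adjusted p = 0.0056).

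Among 10 Smad regulators, partners and direct targets, 3 were higher and 0 lower in the skin of allo-MCd than of allo-WT mice on the deposited scale, beside 10.9% and 50% of all genes and with a median log2 difference of 0.33 against -0.72. Id3, a target of the Smad1 branch that inhibits basic helix-loop-helix factors, averaged 730.3 ± 86.7 (SD, n = 5) in allo-MCd and 309.8 ± 65.8 (SD, n = 3) in allo-WT skin (log2 difference 1.25, adjusted p = 0.000761). It was lower in the skin of allo-WT than of syngeneic mice (-1.02, adjusted p = 0.00982). Jun, an AP-1 subunit that binds Smads, and Cdkn1a, the cell cycle inhibitor p21, were higher in the skin of allo-MCd than of allo-WT mice by 0.78 (adjusted p = 0.019) and 0.64 (0.0062). The median lay between 0.18 (without allo-MCd mouse 5) and 0.43 when 1 mouse was left out, and 1 gene was lower without allo-MCd mouse 3 or 5. The Jun call was lost without allo-WT mouse 1 (0.53, adjusted p = 0.11). Under median scaling 9 of the 10 were higher and 0 lower, beside 35.6% and 30.3%.

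Against syngeneic skin the same list went both ways. In allo-WT skin 2 were higher and 2 lower, beside 28.3% and 14.9% of all genes and with a median of -0.47 against 0.21. Runx2, a Smad-binding factor of bone, was higher (1.38, adjusted p = 0.00195), and Atf3, a stress-induced factor, was lower (-1.37, adjusted p = 0.0247), as Id3 was. In allo-MCd skin 2 were higher and 0 lower, beside 4.6% and 36.9% and with a median of 0.16 against -0.59, namely Id1, a close relative of Id3 (1.14, adjusted p = 0.00265), and Runx2 (0.83, adjusted p = 0.0162). Leaving out 1 mouse gave 1 to 2 higher and 1 to 5 lower in allo-WT skin. There was 1 higher without syngeneic mouse 1 or 2 or allo-WT mouse 1 or 2, 1 lower without syngeneic mouse 1 or 3 or allo-WT mouse 1, and 5 lower without syngeneic mouse 2. In allo-MCd skin it gave 1 higher without syngeneic mouse 2 or 3, 1 lower without allo-WT mouse 3, and 3 lower without syngeneic mouse 2 or allo-MCd mouse 5. The median in allo-WT skin then lay between -0.59 and -0.31, and that in allo-MCd skin between -0.03 (without syngeneic mouse 2) and 0.21. The Atf3 call was lost without syngeneic mouse 1 or 3 or allo-WT mouse 1 (adjusted p up to 0.087), and the Runx2 call in allo-MCd skin without syngeneic mouse 2 or 3 (up to 0.0714). Under median scaling 1 was higher and 6 lower in allo-WT skin, beside 24.3% and 27.3% of all genes, and 6 were higher and 0 lower in allo-MCd skin, beside 13.9% and 13.5%.

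The 15 matrix and fibrosis genes that TGF-β is known to induce in fibroblasts did not move as a block. Between allo-MCd and allo-WT skin 4 were higher and 1 lower, beside 10.9% and 50% of all genes and with a median log2 difference of 0.12 against -0.72. Without allo-WT mouse 1 there were 2 higher and a median of 0.52, and without allo-WT mouse 2 there were 2 higher, 3 lower and a median of -0.28. The one lower was Tnc, tenascin C, a matrix protein of wounds, at 2829 ± 952 (SD, n = 5) against 18694 ± 17181 (SD, n = 3), a log2 difference of -2.38 (adjusted p = 0.00107). Timp3, a metalloproteinase inhibitor, was higher by 1.64 (0.0038), or 1.03 without allo-WT mouse 1, and Ctgf, connective tissue growth factor, by 1.17 (0.00596). Col1a2 and Col3a1, chains of the main fibrillar collagens, differed by 0.27 (adjusted p = 0.68) and -0.25 (0.777), with allo-WT values of Col3a1 between 6974 and 108865 in 3 mice. Under median scaling 7 were higher and 1 lower, beside 35.6% and 30.3%.

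Between allo-WT and syngeneic skin 2 of the 15 were higher and 7 lower, beside 28.3% and 14.9% of all genes and with a median of -1.04 against 0.21. The lower count dropped to 2 without syngeneic mouse 1, to 3 when mouse 3 of that group was left out, and to 4 without allo-WT mouse 1 or 2. Tnc was higher by 4.59 (adjusted p = 0.000123) and Col12a1, a fibril-associated collagen, by 2.11 (0.00207). Cdh2, which encodes N-cadherin, was lower (-2.27, adjusted p = 0.00138). In allo-MCd against syngeneic skin 2 were higher, Tnc by 2.20 (0.00411) and Col12a1 by 1.97 (0.00208), and 3 were lower, Col1a2 among them (-1.70, adjusted p = 0.0275), beside 4.6% and 36.9%. There were 0 lower without syngeneic mouse 1 or 3, 1 without mouse 1 or 4 of the allo-MCd group, and 6 without allo-WT mouse 2 or allo-MCd mouse 5. The call of Col1a2 ended when any single one of syngeneic mice 1 and 3 and allo-MCd mice 1 and 4 was left out (adjusted p up to 0.127). Under median scaling 2 were higher and 0 lower there, where 13.9% and 13.5% of all genes were, and the difference of Col1a2 was -1.11 (adjusted p = 0.115). The 5 fibroblast markers measured, Col1a2 and Col3a1 among them, summed to 97614 to 196447 in syngeneic, 19054 to 152834 in allo-WT and 38884 to 91669 in allo-MCd mice. Col1a2 and Col3a1 are also genes of the matrix list. The other 3 markers, Pdgfra, Pdgfrb and S100a4, were each lower in the skin of allo-MCd relative to syngeneic mice. The differences were -1.07 (adjusted p = 0.00575), -1.36 (0.0208) and -1.58 (0.00503). Under median scaling S100a4 stayed called (-0.99, 0.0272), whereas Pdgfra (-0.48, 0.0609) and Pdgfrb (-0.77, 0.103) did not. Between the allogeneic groups Pdgfra (-0.67, adjusted p = 0.0351) and S100a4 (-1.07, 0.0217) were lower in allo-MCd skin on the deposited scale, where 50% of all genes were. Under median scaling 0 of the 5 fibroblast markers were lower, beside 30.3% of all genes. In allo-WT relative to syngeneic skin 1 of the 5 was lower on the deposited scale and 3 under median scaling, beside 14.9% and 27.3% of all genes. The part of fibroblast content in these differences was not tested.

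**Figure D4:**
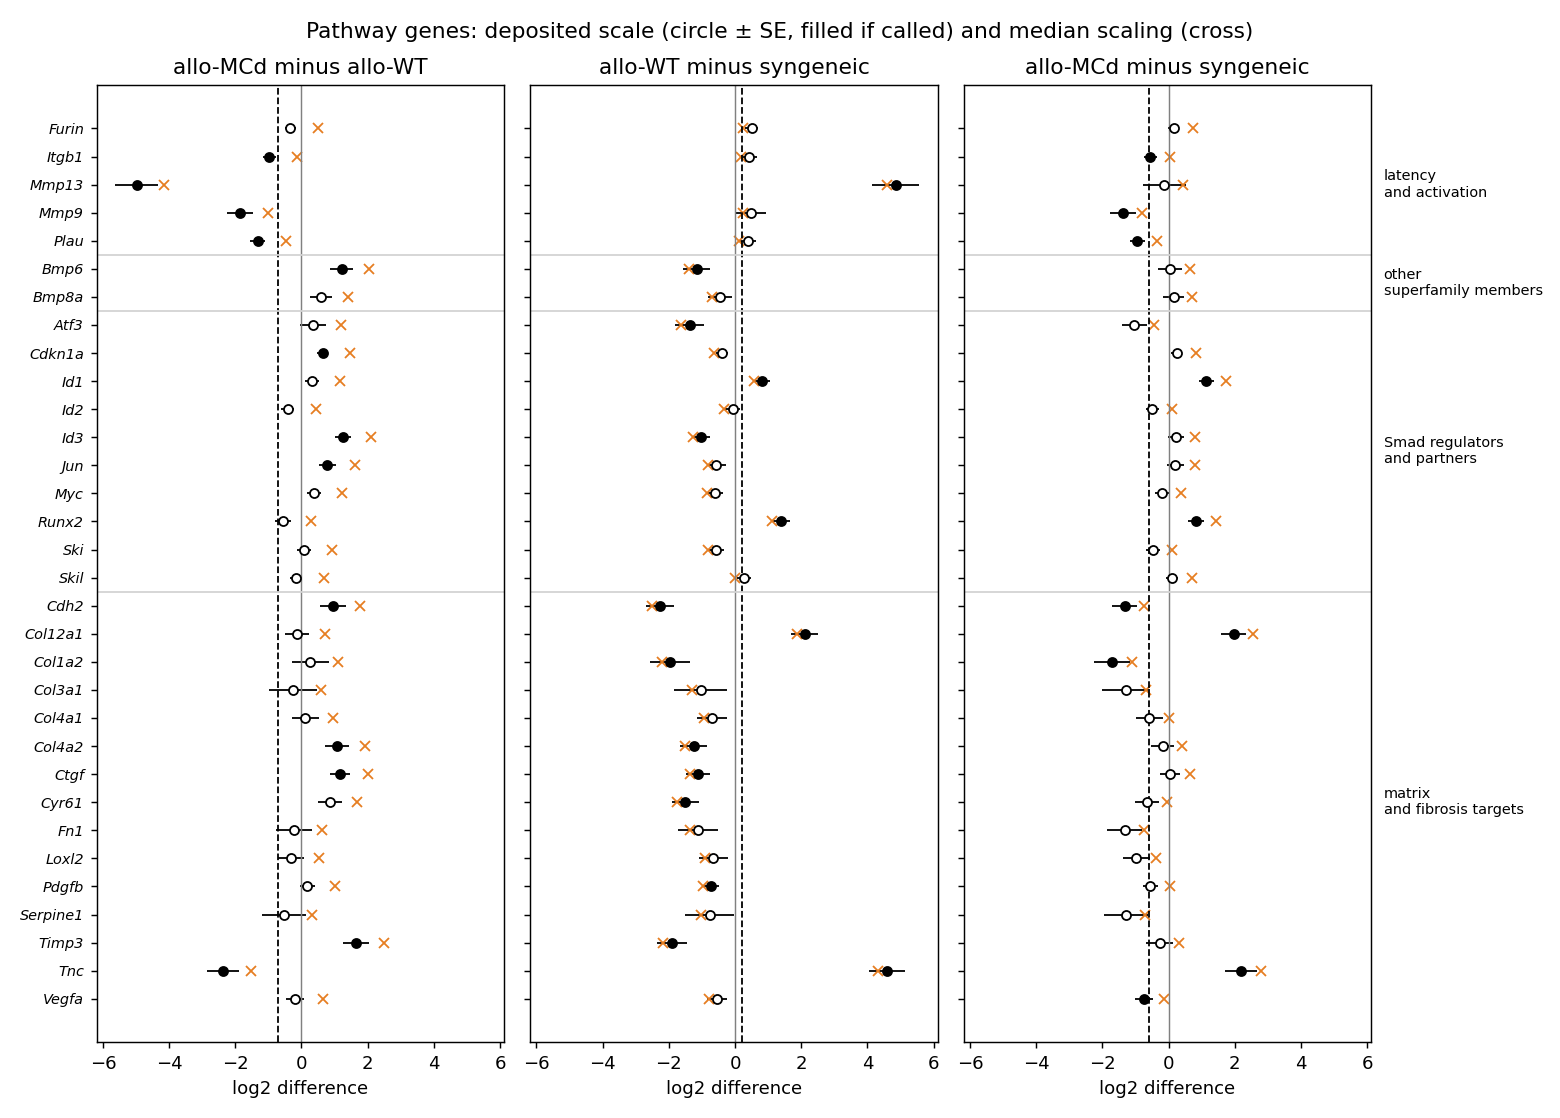
Log2 differences of the 32 pathway genes in the 3 comparisons, on the deposited scale (circles with the SE, filled where called) and under median scaling (crosses), with the median of all 696 genes on the deposited scale as a dashed line. Tnc and Mmp13 lie far to the right in allo-WT minus syngeneic and to the left in allo-MCd minus allo-WT, whereas Id3, Bmp6, Ctgf and Timp3 show the opposite pattern.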

How the data were processed

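Skin RNA of 11 mice (syngeneic n = 3, allo-WT n = 3, allo-MCd n = 5) was measured with 1 NanoString lane per mouse. The authors normalized the molecule counts in the nSolver software and deposited them as a linear signal. The software version was not given in the sources used here. The scaling was found from the values. In every mouse at least 99.87% of gene values were whole multiples of a single factor (tolerance 0.011), and the geometric mean of 20 housekeeping genes was equal within 0.005 in 10 mice. Totals recovered in this way were 831632 to 1460260 counts.

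Control probes (14) and the 20 housekeeping genes were set aside, and the 696 genes that reached 20 in 3 or more mice were tested on log2(value + 1) in limma 3.58.1 (R 4.3.3, intensity trend, no covariate, 3 groups in 1 fit). A fold is on this scale and is too small for low genes. For single genes and ratios, mean log2 values were compared by exact two-sided permutation over 56 or 20 arrangements. Python 3.11.15 with numpy 2.4.6, pandas 2.3.3, scipy 1.17.1 and matplotlib 3.10.9 was used for the other steps. Symbols matched the RefSeq table of GRCm38.p6 for 744 genes directly, for 9 by synonym and for 1 not at all, and all 5 members matched. Promoter sequence was not used for Tgfbr3, Smad2 and Smad7.

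The members, lists and tests were chosen with earlier results of these data known. Named were every member, from each list and comparison the 3 called genes of largest difference, and the 3 genes of most similar profile to each member. Of the cell markers the rule named Adgre1, Csf1r, Cpa3, Cma1, Kit and Col3a1. Cdh1, Cd247, Ctla4, Cdh5, Flt1, Tek, Pdgfra, Pdgfrb and S100a4 were named, after their values were seen, as the markers measured of short lists. The 6 neutrophil markers were named after their values were seen as well. Alternatives were pseudocounts of 20 and 0.5, no filter or one at 50, median scaling, quantile normalization, rescaling to the housekeeping genes, limma without or with a robust trend, only the groups compared, the methods' test (a 3-group test with Tukey's comparison, plain or adjusted over all genes), the mouse number as a block, and each mouse left out. Voom on recovered counts, and mice left out under median scaling, were chosen after seeing the data. The script was tested on simulated data. All pairs of mice within a group differed beyond sampling noise. Same-numbered mice of different groups deviated with correlations of -0.11 to 0.21 over 9 pairs, so mouse numbers were not used as pairs.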

Additional observations from a re-analysis of the deposited data

How the results depend on the processing

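Some calls moved with the scale. Under median scaling 0 members were lower between allo-MCd and allo-WT skin, 2 were lower between allo-WT and syngeneic skin, and 3 were higher and 0 lower between allo-MCd and syngeneic skin. Under quantile normalization the last 3 counts were 3, 2 and 1, and the allo-MCd minus allo-WT difference of Tgfbr3 turned to 0.23, as it did under median scaling (0.38). The methods' test called 1 member higher between allo-WT and syngeneic skin (Tgfb1) and 1 lower between allo-MCd and syngeneic skin, or 0 lower when adjusted over all genes. With a replicate block for the mouse number, 1 member was lower there, since Tgfb1 was not called (-0.64, adjusted p = 0.0733), and no other call on a member changed. The causes were not tested.

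With 1 mouse left out, 2 to 3 members were higher and 1 was lower between allo-MCd and allo-WT skin. Between allo-WT and syngeneic skin 0 were higher and 0 to 1 lower, and between allo-MCd and syngeneic skin 1 was higher and 1 to 2 lower. The Smad7 difference between allo-WT and syngeneic skin lay between -0.29 and 0.09, positive without syngeneic mouse 1 (0.09) or 3 (0.01). Over the other alternatives Smad1, Smad2 and Smad7 were called higher in the skin of allo-MCd than of allo-WT mice in 14 of 14. Their ranges were 0.89 to 1.79, 0.62 to 1.49 and 1.02 to 1.89, and Tgfb1 was called lower in 13 of 14. Most of these analyses kept the deposited scale. Of median scaling and quantile normalization, which did not, only the second called Tgfb1. Of 648 counts and medians of the pathway lists, over the pseudocounts, filters, scalings and mice left out, 77 moved by more than 1.5 times or by more than the spread, 36 of them under median scaling or quantile normalization. The 2 planned edgeR analyses on recovered counts were not run, because the deposited columns mix scaled genes with raw controls, and voom took their place. Single probes, 3 to 5 mice per group and the low counts of allo-WT mouse 1 limit the precision.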
